A study of Caenorhabditis elegans with 2 samples.

Results

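The 9 nucleolar ribosome biogenesis genes fib-1, ncl-1, dao-5, nst-1, pro-1, pro-2, pro-3, lpd-6 and lpd-7 were taken by symbol from a table of 19487 Caenorhabditis elegans genes with exon and intron read counts, and each of the 9 symbols matched 1 gene. The counts come from embryos of mixed stages of strain BW1943, which carries gad-1(ct226) and dpy-11(e224), both on chromosome V. Embryos were collected by bleaching at 25 °C or at 16 °C, with 1 stranded mRNA library for each temperature. GAD-1 is a WD-repeat protein required for gastrulation, and the series title links it to splicing and to the Prp19-associated complex (NTC) of the spliceosome. Both libraries carry both mutations, no wild-type library was analysed here, and temperature and genotype therefore cannot be told apart. There is no replicate check on any difference, so the intervals cover counting error only and not the spread between libraries. They treat reads as independent, which PCR copies are not, and may be too narrow even for counting error.

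Ribosomes are assembled in the nucleolus, where RNA polymerase I makes a long precursor rRNA that is chemically modified, cut and packed with ribosomal proteins. Box C/D snoRNPs guide 2′-O-methylation of the rRNA, and fibrillarin is their methyltransferase. Assembly factors then carry the precursors of the small and the large subunit through processing and export, and many of these factors are conserved from yeast to worm. Early worm embryos inherit maternal ribosomes, and nucleolar size in C. elegans differs between tissues and is limited by NCL-1.

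The members have distinct roles. fib-1 encodes fibrillarin, and ncl-1 encodes a TRIM-NHL-type protein whose loss gives enlarged nucleoli and more FIB-1. dao-5 encodes a nucleolar protein of the Nopp140 type that acts in rRNA synthesis, and nst-1 encodes the GTPase nucleostemin. The pro genes were named for the proximal proliferation of germ cells seen when they are lost. PRO-1, PRO-2 and PRO-3 are related to the yeast large-subunit factors Ipi3, Noc2 and Sda1. The lpd genes were named for depleted lipid, and lpd-6 and lpd-7 encode relatives of Peter Pan (a Brix-domain protein) and of Pescadillo, both of which act in large-subunit assembly in other species.

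The genes lie on 4 chromosomes of WBcel235. fib-1 is at V:15000651-15002223 on the minus strand and pro-3 at V:19101347-19118412 on the minus strand. On chromosome II, pro-1 is at 10539438-10541996, pro-2 at 10339727-10345112 and nst-1 at 8281162-8283208, all on the minus strand. On chromosome III, ncl-1 is at 7719729-7738105 and lpd-7 at 7573350-7575263, both on the plus strand. On chromosome I, dao-5 is at 10187546-10190896 and lpd-6 at 3144411-3147793, both on the minus strand. The annotation was matched by gene identifier, and the build the authors used is not given in the sources used here. Its summed intron length equalled that of the deposited table in 8 of the 9 genes, the exception being ncl-1 with 13572 bases in the annotation and 9575 in the table. The summed exon length was equal only in pro-1 and lpd-7. It differed most in nst-1 (1811 bases in the annotation, 2601 deposited), pro-3 (3513 and 2899) and dao-5 (3158 and 3444).

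Intron content differs widely among the members. The annotation gives them 52 introns in all, counted between merged exons, of which 30 are shorter than a 150-base read. The 4 introns of fib-1 run from 47 to 56 bases, the 4 of dao-5 from 48 to 49, the 4 of nst-1 from 48 to 75 and the 3 of lpd-7 from 45 to 99. In these 4 genes the introns sum to 198, 193, 236 and 191 bases in the deposited table. At the other end, the 8 introns of pro-3 run from 382 to 2952 bases and sum to 13553. How a read that covers both an exon and a short intron was counted is not given in the sources used here.

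Depth was similar, with 17725845 reads in exons and 449772 in introns (2.47% of all) at 25 °C, and 21702143 in exons and 314675 in introns (1.43%) at 16 °C. gad-1 itself had 2748 exon reads at 25 °C and 3123 at 16 °C, a scaled fold of 1.07 (95% interval 1.01 to 1.12). Markers of the intestine summed to 80.0 exon reads per 1000000 library reads at 25 °C against 649 at 16 °C, with 6 of 6 markers at least 2-fold lower. Pharynx markers summed to 44.2 against 553, with 5 of 5 at least 2-fold lower. Body wall muscle markers summed to 2214 at 25 °C and 2235 at 16 °C, epidermis markers to 460.4 and 547, neuron markers to 479.5 and 537, and maternal and early-embryo markers to 1074 and 1084, and 2 of these 23 markers, both neuronal, were at least 2-fold lower. None of the 34 markers was at 0 in either library. The part of cell composition in the results below was not tested, and in these bulk samples fewer cells of a type and less RNA per cell cannot be told apart.

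Exon reads of the nucleolar genes stayed within 2-fold between the libraries, and fib-1 stood apart from the other 8. Levels are given as RPKM, the exon reads of a gene per kilobase of its deposited exon length and per 1000000 reads of the library. fib-1, the most abundant member in both libraries, had 8849 exon reads at 25 °C and 18663 at 16 °C, an exon level of 342 and 596 RPKM. That is 1.74-fold lower at 25 °C (95% interval 1.70 to 1.79). Its antagonist ncl-1 went the other way, with 5687 exon reads at 25 °C and 5158 at 16 °C, or 64.3 and 48.1 RPKM, a fold of 1.34 (1.29 to 1.39).

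Of the remaining members, dao-5 had 12967 exon reads at 25 °C and 12170 at 16 °C, a scaled fold of 1.29 (1.26 to 1.32). lpd-7 had 9099 and 8062 exon reads at 25 °C and 16 °C, a fold of 1.37 (1.33 to 1.41), and lpd-6 had 4772 and 4057, a fold of 1.42 (1.37 to 1.49). lpd-6 thus had the highest exon fold of the 9. The pro genes had lower exon levels and lower exon folds than dao-5, lpd-6 and lpd-7, though the fold interval of pro-3 overlaps that of dao-5.

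For pro-3 there were 1890 exon reads at 25 °C and 1850 at 16 °C, a fold of 1.24 (1.16 to 1.32). For pro-2 there were 2707 and 2891, a fold of 1.13 (1.08 to 1.20), and for pro-1 869 and 934, a fold of 1.13 (1.03 to 1.24). The raw counts of pro-1 and pro-2 are lower at 25 °C and their scaled levels higher, because the 25 °C library is smaller. nst-1, with 7165 exon reads at 25 °C and 8720 at 16 °C, had a scaled fold of 0.995 (0.965 to 1.03), an interval that includes no difference.

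By size alone, none of the 9 members (0 higher, 0 lower) differed by 2-fold or more in exon reads at 25 °C. Of 14313 genes with 10 or more exon reads in either library, 5.81% were higher and 33.6% lower by that much. Among 6404 genes with 1000 or more combined exon reads, which include all 9 members, these shares were 2.47% and 12.5%. A change as low as that of fib-1 or lower was found in 16.8% of those 6404 genes. Of the members, 7 lay above 0 on the log2 scale, against 44.3% of the 6404 genes and 32.8% of the 14313. The median log2 of the 9 was 0.31, beside -0.42 over the 14313 genes and -0.08 over the 6404. These signs depend on the scaling. Scaling by the median exon ratio over genes adds 0.36 to each log2 change and TMM adds 0.30, which leaves fib-1 as the 1 member below 0 and puts nst-1 above it (log2 0.35 and 0.29).

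Ordered by exon level per kilobase, both libraries gave fib-1, lpd-7, dao-5, nst-1, lpd-6, pro-2, ncl-1, pro-3 and pro-1 from high to low. At 25 °C pro-2 (64.7, counting interval 62.3 to 67.2) and ncl-1 (64.3, 62.6 to 66.0) could not be separated. At 16 °C they did not overlap, at 57.0 (55.0 to 59.1) and 48.1 (46.8 to 49.4). fib-1 and lpd-7 came closer together at 25 °C, at 342 and 291 RPKM, than at 16 °C, at 596 and 213. The place of nst-1 rests on its length, 2601 bases in the deposited table and 1811 in the annotation. With annotation lengths its exon level was 218 at 25 °C and 219 at 16 °C, and it then exceeded lpd-7 and dao-5 at 16 °C but neither of them at 25 °C. By the same lengths pro-1 stood just above pro-3 at 16 °C, at 24.8 and 23.9.

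**Figure D1:**
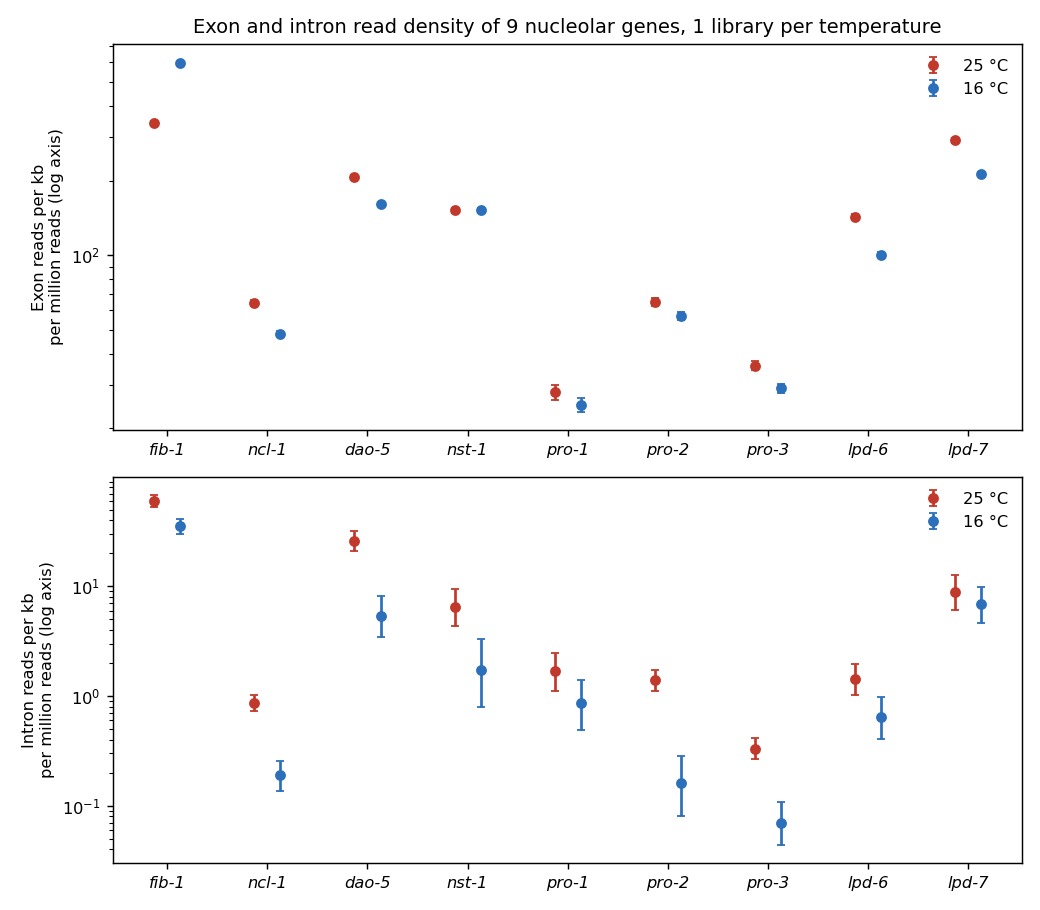
Exon reads (upper panel) and intron reads (lower panel) per kilobase and per 1000000 reads for the 9 genes, on log axes, with the 25 °C library in red left of the 16 °C library in blue, and exact 95% Poisson intervals for counting error. fib-1 is the 1 gene whose exon level is clearly lower at 25 °C (342 against 596), while the intron values are higher at 25 °C in all 9, with overlapping intervals in pro-1 and lpd-7.

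Scaled intron reads were higher at 25 °C, with an interval above 1, in 8 of the members, the exception being lpd-7 at 1.29-fold (0.755 to 2.23). The share of all genes with such an interval was not computed, so this count is not a result about the members. Introns took 2.47% of all reads at 25 °C and 1.43% at 16 °C. The median log2 intron change was 1.86 in the members, 1.08 in the top quartile of exon reads and 0.40 over all tested genes. The members together had 745 intron reads at 25 °C and 326 at 16 °C, a library-scaled fold of 2.77 (2.43 to 3.16), next to 54005 and 62505 exon reads, a fold of 1.05 (1.03 to 1.06). Without fib-1 the summed intron fold was 3.74 (3.14 to 4.47) and the exon fold 1.25 (1.23 to 1.26). Scaled intron reads were at least 2-fold higher in 6 of 9 members, a share to be read against 53.8% of genes in the top quartile of exon reads and 35.9% of all tested genes.

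The intron-to-exon ratio, tested gene by gene, rose in 6 members, fell in 0 and was not called in 3. Each gene had its 4 counts compared by Fisher exact test, two-sided, with Benjamini-Hochberg adjustment over 14972 genes with 10 or more combined reads and a threshold of 0.05. The test sets 2 libraries side by side and does not test temperature. Over all tested genes 28.1% were called as rises and 0.614% as falls. Calls depend on depth, and 59.9% of the 3744 genes in the top quartile of combined exon reads (at least 2626), which holds 8 of the 9 members, were called as rises. The 6 of 9 called here is near that share and is not a result about the members as a set. The median ratio was 3.39-fold in the members, 2.08-fold in that top quartile and 2.09-fold over all tested genes.

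pro-2, the Noc2 relative, had the highest ratio change of the 9. It had 79 intron reads at 25 °C and 11 at 16 °C, and introns took 2.84% (exact interval 2.25 to 3.52) of its reads at 25 °C, against 0.379% (0.189 to 0.677) at 16 °C. The ratio rose 7.67-fold (4.05 to 16.0; adjusted p = 6.18e-13, Fisher exact test). Its exon reads differed by 1.13-fold, so nearly all of the difference was in intron reads, which were 8.70-fold higher (4.61 to 18.1). Of all tested genes, 87.0% had a lower ratio change than pro-2. The interval of its ratio, which rests on 11 intron reads at 16 °C, overlaps those of pro-3, nst-1, dao-5 and ncl-1.

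A group of 4 members (pro-3, nst-1, dao-5 and ncl-1) lay close together, between 3.42- and 3.82-fold, although their introns differ greatly in length. In pro-3, the Sda1 relative with the longest introns, 82 intron reads at 25 °C and 21 at 16 °C gave a 3.82-fold rise (2.33 to 6.53; adjusted p = 6.57e-08, Fisher exact test). In nst-1, 28 and 9 intron reads at 25 °C and 16 °C gave 3.79-fold (1.74 to 9.13; adjusted p = 0.00134, Fisher exact test). In dao-5, 91 and 23 gave 3.71-fold (2.33 to 6.15; adjusted p = 1.92e-08, Fisher exact test). These 3 folds have wide and overlapping intervals and cannot be ordered.

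ncl-1 had 151 intron reads at 25 °C and 40 at 16 °C, or 2.59% (2.19 to 3.03) and 0.770% (0.550 to 1.05) of its reads, and its ratio rose 3.42-fold (2.40 to 4.99; adjusted p = 4.29e-12, Fisher exact test). The longest ncl-1 intron spans 7302 bases in the annotation, and 2 short genes, ZK112.4 and the noncoding ZK112.14, lie within the ncl-1 locus on the opposite strand, while ZK112.5 overlaps its end by 51 bases. Whether counting used strand is not given in the sources used here, so the ncl-1 intron reads are uncertain. The end of pro-3 overlaps zhp-4 on the same strand over 440 bases, and dao-5 overlaps rsa-1 on the opposite strand over 5 bases. zhp-4 had 57 exon reads at 25 °C and 91 at 16 °C, far fewer than pro-3.

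fib-1 differed from the other 5 members that rose in how its ratio change was split between introns and exons. It had 217 intron reads at 25 °C and 155 at 16 °C, or 2.39% (2.09 to 2.73) and 0.824% (0.700 to 0.963) of its reads. Scaled intron reads were 1.70-fold higher (1.37 to 2.10) while exon reads were 1.74-fold lower, and the ratio rose 2.95-fold (2.39 to 3.66; adjusted p = 4.66e-22, Fisher exact test). On the log2 scale with 0.5 reads added, the ratio change of 1.56 is the intron change of 0.76 minus the exon change of -0.80. Scaled by the median exon ratio these changes were 1.12 and -0.44, and by TMM 1.06 and -0.50. The medians over all genes lay on the same sides, at 0.40 for introns and -0.42 for exons. Those of ribosomal protein genes were 0.45 and -1.28, so the split is not particular to fib-1. The ratio interval of fib-1 does not overlap that of pro-2. In the other 5 members that rose, the exon change lay between -0.01 and 0.42 and the intron change between 1.86 and 3.07.

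The 3 members not called were pro-1, lpd-6 and lpd-7. pro-1 had 26 intron reads at 25 °C and 16 at 16 °C, a ratio of 1.75-fold (0.895 to 3.51; adjusted p = 0.220, Fisher exact test). lpd-6, the Peter Pan relative, had 40 and 22 at 25 °C and 16 °C, a ratio of 1.55-fold (0.895 to 2.74; adjusted p = 0.289, Fisher exact test). Both intervals include no difference and also the median fold of all genes, so neither a typical rise nor none can be separated at this depth.

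lpd-7, the Pescadillo relative, differed from them in where its interval lies. It had 31 intron reads at 25 °C and 29 at 16 °C, or 0.340% (0.231 to 0.482) and 0.358% (0.240 to 0.514) of its reads. The ratio was 0.947-fold (0.552 to 1.63; adjusted p = 1, Fisher exact test), an interval that ends below the median of all genes, 2.09-fold. It also ends below the lower bound of each of the 6 members that rose, the lowest of which is 1.74 in nst-1. Of all tested genes, 17.8% had a lower ratio change. The other members with under 250 bases of intron, dao-5, fib-1 and nst-1, were at 3.71-, 2.95- and 3.79-fold.

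**Figure D2:**
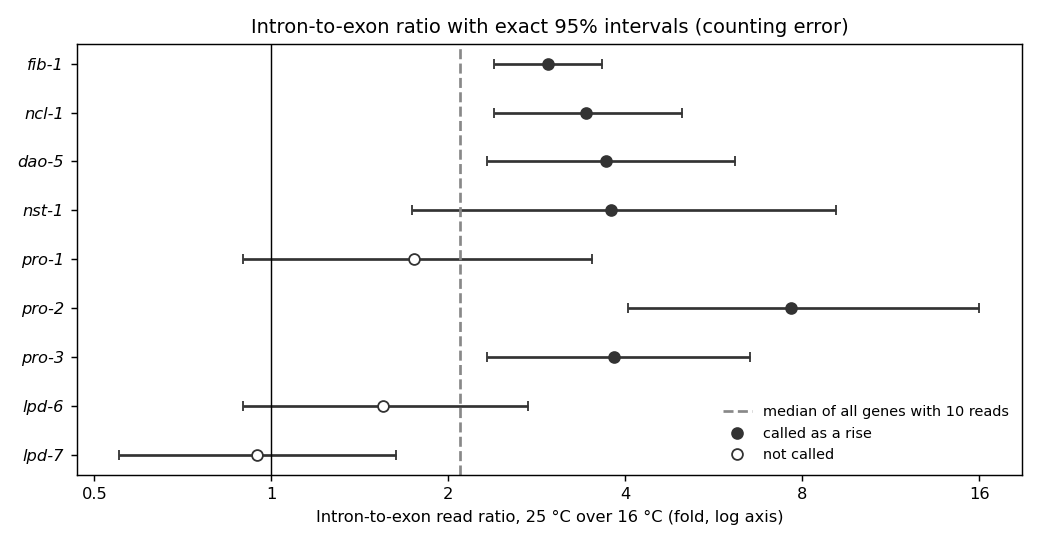
Fold of the intron-to-exon ratio, 25 °C over 16 °C, for the 9 genes, on a log axis, with exact 95% intervals, filled points for genes called as rises and open points for those not called. pro-2 lies highest at 7.67-fold and lpd-7 lowest at 0.947-fold, and the dashed line marks the median of all tested genes at 2.09-fold.

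In the authors' deposited table, 5 of the 9 members (fib-1, pro-2, ncl-1, dao-5 and pro-3) pass its adjusted p of 0.01, against 5.55% of its 19487 genes called as rises. That share takes in genes with few or no reads, and no share at the depth of the members was computed. Calls depend on depth, so the 5 of 9 is not a result about the members as a set. The sixth, nst-1, has a deposited p of 0.000201 and a deposited adjusted p of 1 in the authors' deposited table. The deposited adjusted p lies within 2% of a Bonferroni adjustment (p times the number of genes) in 19487 genes. By Benjamini-Hochberg, as used here, the adjusted p of nst-1 was 0.00134 (Fisher exact test). Its intron count, 28 and 9 reads at 25 °C and 16 °C, is lower than those of the 5.

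Per base, fib-1 and dao-5 had the highest intron density relative to exon density at 25 °C, and fib-1 also at 16 °C. Intron density relative to exon density was 17.6% at 25 °C and 5.97% at 16 °C in fib-1, and 12.5% and 3.37% in dao-5. In nst-1 it was 4.31% and 1.14%, and in lpd-7 3.07% and 3.24%. The genes with the most intron sequence were at 0.928% and 0.243% in pro-3, 1.35% and 0.394% in ncl-1, and 2.16% and 0.281% in pro-2.

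pro-1, with 847 bases of intron, lay at 6.05% at 25 °C and 3.46% at 16 °C, above nst-1 and lpd-7 in both libraries and above dao-5 at 16 °C. lpd-6 lay at 1.001% and 0.648%. In the top quartile of exon reads the median relative density was 6.94% at 25 °C and 2.75% at 16 °C in 738 genes with summed introns under 250 bases, and 3.16% and 1.49% in 3006 genes with longer ones. At 25 °C fib-1 and dao-5 were thus above, and nst-1 and lpd-7 below, the median of genes with short introns. At 16 °C fib-1, dao-5 and lpd-7 were above that median and nst-1 was below it. The share called as rises in those 738 genes was 52.6%, and 3 of the 4 members with short introns were called.

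**Figure D3:**
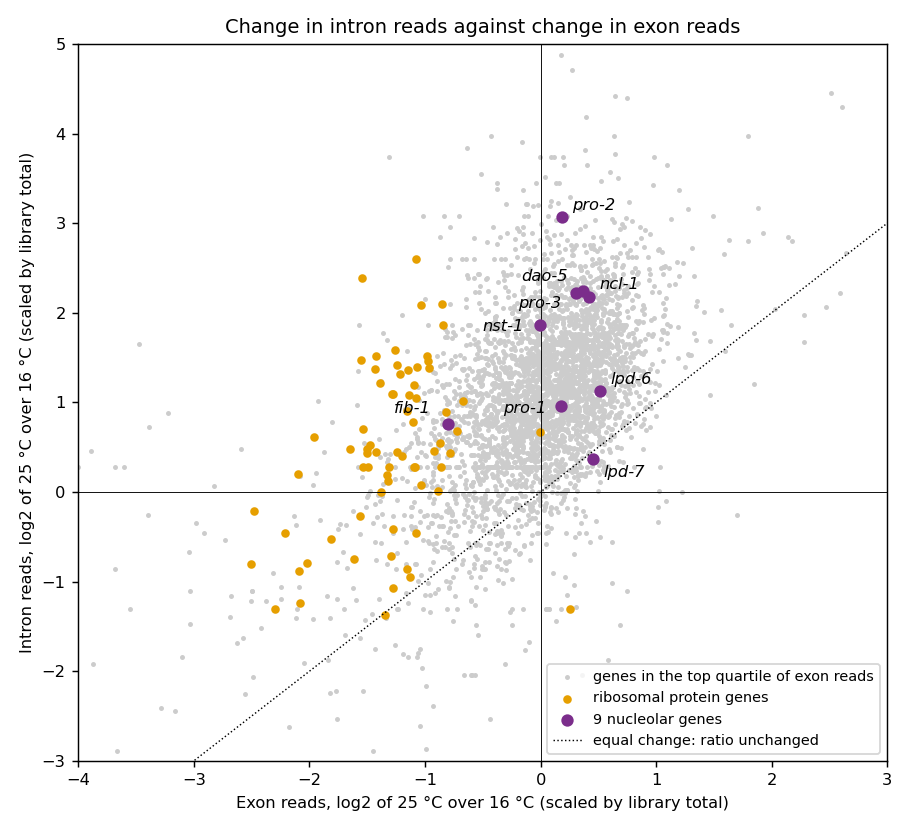
Library-scaled log2 change, 25 °C over 16 °C, of intron reads (vertical) against exon reads (horizontal) for the 9 genes in purple, ribosomal protein genes in orange and 3744 genes in the top quartile of exon reads in grey, of which 69 fall outside the axes with 1 ribosomal protein gene. fib-1 lies at an exon change of -0.80, at the upper edge of the ribosomal protein genes (66 of 71 are lower), the other 8 lie at or above -0.01, and lpd-7 lies just below the dotted line of equal change.

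Of the members, fib-1, pro-1, pro-3 and dao-5 have a protein-coding neighbour on the same strand within 500 bases without overlap, and the neighbours did not follow their members in a uniform way. Close spacing on 1 strand is common in worm operons. The ribosomal protein gene rps-16 begins 109 bases downstream of fib-1. It had 6215 exon reads at 25 °C and 15408 at 16 °C, 2.05-fold lower (1.99 to 2.11), an interval that does not overlap that of fib-1 (1.70 to 1.79) but lies on the same side. It had 75 intron reads at 25 °C and 21 at 16 °C, and its ratio rose 8.85-fold (5.39 to 15.1; adjusted p = 6.52e-21, Fisher exact test), with an interval above that of fib-1.

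R166.3 lies 105 bases downstream of pro-1. It had 36 intron reads at 25 °C and 19 at 16 °C, and its ratio rose 2.91-fold (1.61 to 5.42; adjusted p = 0.000951, Fisher exact test), an interval that overlaps that of pro-1. Its exon fold was 0.788 (0.717 to 0.865), against 1.13 in pro-1. mnk-1, 424 bases upstream of pro-1, had an exon fold of 2.35 (2.29 to 2.41), and its ratio rose 2.52-fold (1.96 to 3.28; adjusted p = 1.47e-13, Fisher exact test).

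Y39B6A.13, 92 bases upstream of pro-3, had 50 and 44 intron reads at 25 °C and 16 °C and a ratio of 1.70-fold that was not called (1.08 to 2.67; adjusted p = 0.0535, Fisher exact test). Its exon fold was 0.810 (0.707 to 0.927), against 1.24 in pro-3. lid-1, 376 bases upstream of dao-5, had 80 intron reads at 25 °C and 134 at 16 °C and a ratio of 0.952-fold that was not called (0.706 to 1.28; adjusted p = 1, Fisher exact test). Its exon fold was 0.760 (0.708 to 0.815), against 1.29 in dao-5. These neighbours were chosen by distance after the values were seen, and whether any pair shares a transcript was not tested.

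Exon changes of other ribosome biogenesis genes differed from list to list. Of 51 names in 5 lists, 7 were unmatched, and synonyms left 42 genes. For the ratio, 30 of the 42 rose, 0 fell and 12 were not called, beside the 28.1% and 59.9% given above, and the median was 2.63-fold. Exon reads were higher by 2-fold or more in 1 of the 42 and lower by as much in 2, with a median log2 of -0.09. Over the 14313 genes these shares were 5.81% and 33.6%. Over the 6404 genes with 1000 or more combined exon reads they were 2.47% and 12.5%.

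The snoRNP genes, which encode the partners of fibrillarin and dyskerin of the other snoRNP class, were lower in exon reads in 3 of 3 genes matched, with a median log2 of -0.62 that remains below 0 when scaled by the median exon ratio or TMM. Since 67.2% of the 14313 genes and 55.7% of the 6404 well-read genes were also below 0, the count of 3 genes is not a result about this list. nol-56, a core protein of the box C/D particle, had 2693 exon reads at 25 °C and 8546 at 16 °C, 2.62-fold lower. nol-5, a second core box C/D protein, had 6874 and 12841 exon reads at 25 °C and 16 °C, 1.54-fold lower, and its ratio rose 8.54-fold (3.70 to 22.9; adjusted p = 5.30e-08, Fisher exact test). dkc-1, dyskerin, was 1.33-fold lower in exon reads, with 5948 and 9583 at 25 °C and 16 °C, and its ratio rose 5.02-fold (2.86 to 9.26; adjusted p = 8.69e-09, Fisher exact test). The exon change of fib-1 lay between those of nol-56 and nol-5.

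The 10 small-subunit factors resembled the other 8 members in exon reads, with a median log2 of 0.25 and 8 of 10 above 0, and 10 of 10 within 2-fold. Of the 14313 genes, 32.8% were above 0 and 8670 genes within 2-fold, and 44.3% of the 6404 well-read genes were above 0. Their ratio rose in 7 of 10, beside 28.1% of all tested genes and 59.9% of the top quartile of exon reads. The median was 2.06-fold, near the 2.09-fold of all tested genes, so neither value is a result about this list. It rose 5.04-fold (2.95 to 9.10; adjusted p = 3.00e-10, Fisher exact test) in nol-6 and 4.12-fold (2.36 to 7.64; adjusted p = 4.41e-07, Fisher exact test) in rbd-1, an RNA-binding processing factor. riok-2, an atypical kinase of late small-subunit maturation, was 1.35-fold higher in exon reads (4240 at 25 °C and 3793 at 16 °C).

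The 11 large-subunit factors had a median exon log2 of -0.11 and a ratio that rose in 8 of 11 (median 2.95-fold). Over all tested genes 28.1% rose, and in the top quartile of exon reads 59.9%. The ratio rose 6.25-fold (3.80 to 10.7; adjusted p = 3.16e-15, Fisher exact test) in grwd-1 and 3.56-fold (2.34 to 5.55; adjusted p = 3.01e-09, Fisher exact test) in nol-1, an rRNA methyltransferase. nifk-1 was 1.85-fold lower in exon reads, with 758 at 25 °C and 1701 at 16 °C. For the 13 exosome and exonuclease genes, which trim and degrade rRNA precursors, the median exon log2 was -0.14. Their ratio rose in 8 of 13 (median 1.93-fold), beside the same 28.1% and 59.9%. The ratio of exos-2 rose 5.49-fold (2.34 to 14.9; adjusted p = 6.42e-05, Fisher exact test) and that of exos-4.1 4.23-fold (2.03 to 9.43; adjusted p = 0.000195, Fisher exact test), while exos-1 was 1.61-fold lower in exon reads (572 at 25 °C and 1113 at 16 °C). The medians of the large-subunit and exosome lists turn above 0 when scaled by the median exon ratio or TMM.

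RNA polymerase I subunits were split. Exon reads were lower in 4 of 5, beside 67.2% of all genes and 55.7% of the 6404 well-read genes, with a median log2 of -0.53. The ratio rose in 4 of 5 (median 3.51-fold), beside 28.1% of all tested genes and 59.9% of the top quartile of exon reads. With 5 genes, neither count is a result about this list. rpac-19, a subunit shared with RNA polymerase III, was 2.64-fold lower in exon reads (650 at 25 °C and 2079 at 16 °C), and its ratio rose 3.998-fold (2.34 to 6.88; adjusted p = 1.84e-06, Fisher exact test). The ratio of rpoa-2, the second largest subunit, rose 8.11-fold (3.11 to 26.8; adjusted p = 3.97e-06, Fisher exact test) on 30 and 5 intron reads at 25 °C and 16 °C. rpoa-1, the largest subunit, was the 1 member above 0, with an exon log2 of 1.16.

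Ribosomal protein genes, the cargo of this assembly line, had a lower median exon change than the 9 nucleolar genes or any of the 5 lists. Their exon reads summed to 14907 per 1000000 reads at 25 °C and 36389 at 16 °C, whereas the 9 nucleolar genes summed to 2971 and 2839. The median exon log2 was -1.28 in 71 genes with enough reads, 56 of which were at least 2-fold lower. That limit was passed by 33.6% of the 14313 genes and 12.5% of the 6404 well-read genes. fib-1, at -0.80, had a higher exon change than 66 of the 71 and a lower one than 5. The median ratio was 3.36-fold in the ribosomal protein genes and 3.39-fold in the 9 nucleolar genes, with median log2 intron changes of 0.45 and 1.86. rpl-9 rose 13.6-fold in the ratio (5.61 to 39.9; adjusted p = 5.63e-11, Fisher exact test), and rpl-39 was 5.68-fold lower in exon reads.

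**Figure D4:**
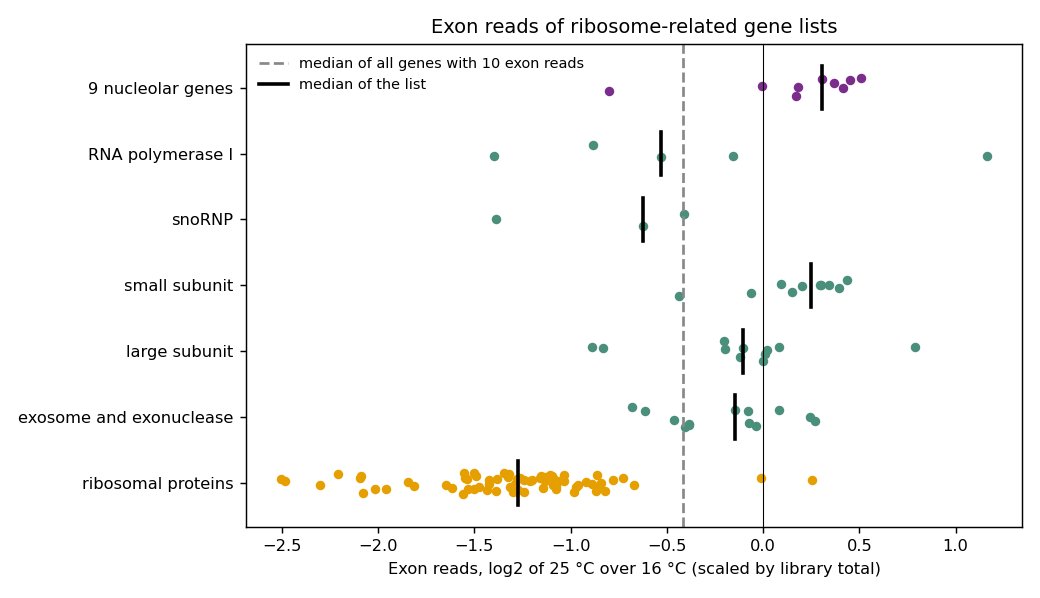
Library-scaled log2 change of exon reads, 25 °C over 16 °C, for each gene (points) of the 9 nucleolar genes, 5 other ribosome biogenesis lists and the ribosomal protein genes, with list medians as black bars and the median of all 14313 genes as a dashed line. The nucleolar genes have a median of 0.31 with fib-1 alone to the left of the dashed line, the snoRNP genes one of -0.62 and the ribosomal protein genes one of -1.28.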

How the data were processed

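Per the submitters' processing notes, the tools used were Trimmomatic, TopHat2 and HTSeq, with no versions. The deposited table holds raw exon and intron read counts per gene and library, with summed lengths, per the file headers. The authors' deposited fold is a ratio, recomputed from the counts within 0.01% in 10860 of 10860 genes with a finite fold above 0. The authors' deposited p-value equalled a Fisher exact test within 2% in 19487 genes.

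Counts of 18175617 (25 °C) and 22016818 (16 °C) reads set the scaling. With 1 library per group no count model can estimate spread, so Fisher exact tests (scipy 1.17.1) were used and levels were described by size. Intervals are exact at 95%, and log2 values add 0.5 reads. TMM factors came from edgeR 4.0.16, and positions from Ensembl release 115. The members and lists were chosen with earlier results of these data known. All 9 members are named, with gad-1 and, from each other list, the 2 genes with the largest ratio change among those with 20 combined intron reads and the 1 with the largest exon change. The other genes named (the neighbours, rpoa-1, ZK112.4, ZK112.5 and ZK112.14) were chosen after their values were seen. No sequence is shown, since no sequence table was used here.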

Additional observations from a re-analysis of the deposited data

How the results depend on the processing

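The 6 rises and 0 falls of the intron-to-exon ratio among the members held with no minimum, with 50 combined reads, with 20 combined intron reads (added after seeing the data) and with 1 read added. The Bonferroni adjustment at 0.01 left 5, losing nst-1. With no minimum, 7 of the large-subunit genes rose in place of 8 and 46 ribosomal protein genes in place of 50, and the counts of the other 4 lists were equal. The ratio does not depend on library scaling. The median exon log2 of the members, 0.31, was 0.67 when scaled by the median exon ratio and 0.60 by TMM, and 1 member, fib-1, was lower at a limit of 1.5-fold against 0 at 2-fold. The exon change of nst-1, -0.01, reversed to 0.35, 0.29 and 0.0086 under the median exon ratio, TMM and scaling by exon total (added after seeing the data). For the median exon ratio and TMM (added after seeing the data for the lists), the median exon log2 became -0.17 and -0.24 for RNA polymerase I, -0.26 and -0.33 for snoRNP, 0.61 and 0.55 for small-subunit, -0.91 and -0.98 for ribosomal protein genes, and reversed to 0.25 and 0.19 for large-subunit and to 0.22 and 0.15 for exosome genes. These moves follow from the shift that the scaling gives to every gene. Depth limits pro-1 and lpd-6, whose ratio intervals span both 1 and the median of all genes. No paired analysis was possible because each temperature has a single library.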
